A study of Homo sapiens with 34 samples.

Results

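Developmental homeobox genes outside the HOX clusters were followed in KELLY, a MYCN-amplified neuroblastoma cell line of human origin. The 52 genes were taken by name from the PAX, LHX, LMX, NKX, DLX, IRX, EMX, OTX, EN and GBX families and the sine oculis family (SIX2, SIX3 and SIX6), out of 19970 protein-coding genes of GENCODE release 44 (hg38) on chromosomes 1 to 22 and X. All 30 peak lists came from cells with a hairpin RNA, switched on by doxycycline, that targets the transcriptional co-repressor RUNX1T1. Control cells received the solvent DMSO and knockdown cells doxycycline, both for 72 h, and each of 5 histone marks was profiled by chromatin immunoprecipitation followed by sequencing (ChIP-seq) in 3 libraries per treatment. Both treatments carried the hairpin, so an effect of doxycycline itself and of the knockdown cannot be told apart. RUNX1T1 kept an active promoter in both treatments (H3K4me3 and H3K27ac in 3 of 3 libraries each), but a hairpin acts on the transcript and the knockdown cannot be read from promoter marks.

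Homeobox genes encode DNA-binding proteins that give cells their position and type in the embryo, and most of them are silent in any given tissue. Silent developmental genes are typically held by the Polycomb group proteins, whose Polycomb repressive complex 2 places H3K27me3, often over wide domains. H3K4me3 marks promoters that are open to transcription, H3K27ac marks active promoters and enhancers, and H3K4me1 and H3K4me2 flank them. Promoters that carry H3K4me3 and H3K27me3 together are called bivalent, a state described for developmental genes in stem cells.

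A gene was assigned a state from the marks with a peak within 1 kb of any annotated start site in 3 of 3 libraries of a treatment. Active promoters had H3K4me3 and H3K27ac without H3K27me3, bivalent ones H3K4me3 with H3K27me3, and Polycomb ones H3K27me3 without H3K4me3. A promoter with no mark in 3 of 3 libraries was called bare. The sequences below show a promoter of each state, the member with the highest ratio of observed to expected CpG among those with an entry, together with that of LHX4, which was chosen after its values were seen because it gained H3K27ac. Each is the 250 bases before the start site from RefSeq (GRCh38.p14), 5′ to 3′ on the strand of the gene, with CpG dinucleotides in capitals.

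SIX2 was active (chr2:45009453-45009702, minus strand), EN2 bivalent (chr7:155457879-155458128, plus strand), IRX4 Polycomb (chr5:1882926-1883175, minus strand) and LHX4 bivalent with a gain of H3K27ac (chr1:180230014-180230263, plus strand).
SIX2: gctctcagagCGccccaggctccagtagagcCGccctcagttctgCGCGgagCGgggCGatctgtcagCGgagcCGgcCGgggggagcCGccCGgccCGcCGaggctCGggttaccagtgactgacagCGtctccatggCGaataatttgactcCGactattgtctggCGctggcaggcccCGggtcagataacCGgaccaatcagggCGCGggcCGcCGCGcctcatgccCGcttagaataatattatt
EN2: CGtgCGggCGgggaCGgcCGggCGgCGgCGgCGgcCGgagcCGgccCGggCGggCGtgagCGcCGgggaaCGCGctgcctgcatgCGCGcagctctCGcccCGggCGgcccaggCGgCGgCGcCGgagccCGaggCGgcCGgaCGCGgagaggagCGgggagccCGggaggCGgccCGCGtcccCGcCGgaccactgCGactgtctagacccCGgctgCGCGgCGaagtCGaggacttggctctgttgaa
IRX4: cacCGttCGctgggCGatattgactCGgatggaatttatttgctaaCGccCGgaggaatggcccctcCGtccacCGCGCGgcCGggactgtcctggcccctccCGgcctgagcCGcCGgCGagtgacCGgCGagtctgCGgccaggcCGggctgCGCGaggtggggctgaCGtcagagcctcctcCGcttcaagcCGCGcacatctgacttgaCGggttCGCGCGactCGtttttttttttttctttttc
LHX4: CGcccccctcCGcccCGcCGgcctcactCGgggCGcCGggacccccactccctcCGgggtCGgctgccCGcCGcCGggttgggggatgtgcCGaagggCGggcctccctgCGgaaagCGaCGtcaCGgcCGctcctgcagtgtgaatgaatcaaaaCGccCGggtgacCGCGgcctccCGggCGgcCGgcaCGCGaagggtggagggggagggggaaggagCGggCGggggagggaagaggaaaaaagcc

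The printed stretches held 26 CpG dinucleotides in SIX2, 45 in EN2, 30 in IRX4 and 30 in LHX4. Over the 300 bases of the full entries, which run 50 bases past the start, 98.2% of 15315 protein-coding promoters held fewer CpG dinucleotides than EN2, 81.3% fewer than IRX4, 72.1% fewer than LHX4 and 64.1% fewer than SIX2. The active promoter thus held the fewest CpG dinucleotides of these 4. The ratio of observed to expected CpG was lowest in LHX4, at 0.812 against 0.949 in SIX2. SIX2, EN2 and IRX4 were picked by a rule and LHX4 by its values, and they describe no state as a whole. A comparison of sequence content over the list was void, because entries were held for 37 of the 52 genes (71.2%), under the 80% set as needed.

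Peaks had been called at a depth of 71.9 to 81.1 M reads for DMSO and of 57.0 to 63.4 M for doxycycline. As these ranges did not overlap, treatment and depth cannot be told apart. The H3K27me3 libraries fell into 2 kinds by estimated fragment length, as given by the caller, at 256 to 280 bp in DMSO replicate 1 and doxycycline replicates 1 and 2, and at 105 to 112 bp, close to the read length, in DMSO replicates 2 and 3 and doxycycline replicate 3. Results on H3K27me3 are therefore given by library. Of 10 markers of sympathetic neuroblasts, 10 were active in both treatments. Of 8 mesenchymal or Schwann precursor markers, 1 was active in both treatments. Of 4 fibroblast and blood markers, 1 (COL1A1) was active in DMSO and 0 in doxycycline, where COL1A1 was bivalent. No label gave separate cultures for the libraries, so spreads between them may be technical.

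In DMSO, 10 of the 52 genes were active (19.2%), 27 were bivalent (51.9%) and 15 were Polycomb (28.8%). Over all protein-coding genes the shares were 59.4% active, 11.1% bivalent and 9.77% Polycomb, and 13.2% were bare. None of the 52 genes was bare, and none carried H3K4me3 alone. H3K27me3 was thus present in 3 of 3 DMSO libraries at 42 of the 52 promoters, against 20.9% of all genes, and H3K27ac at 13, against 65.8% of all genes.

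**Figure D1:**
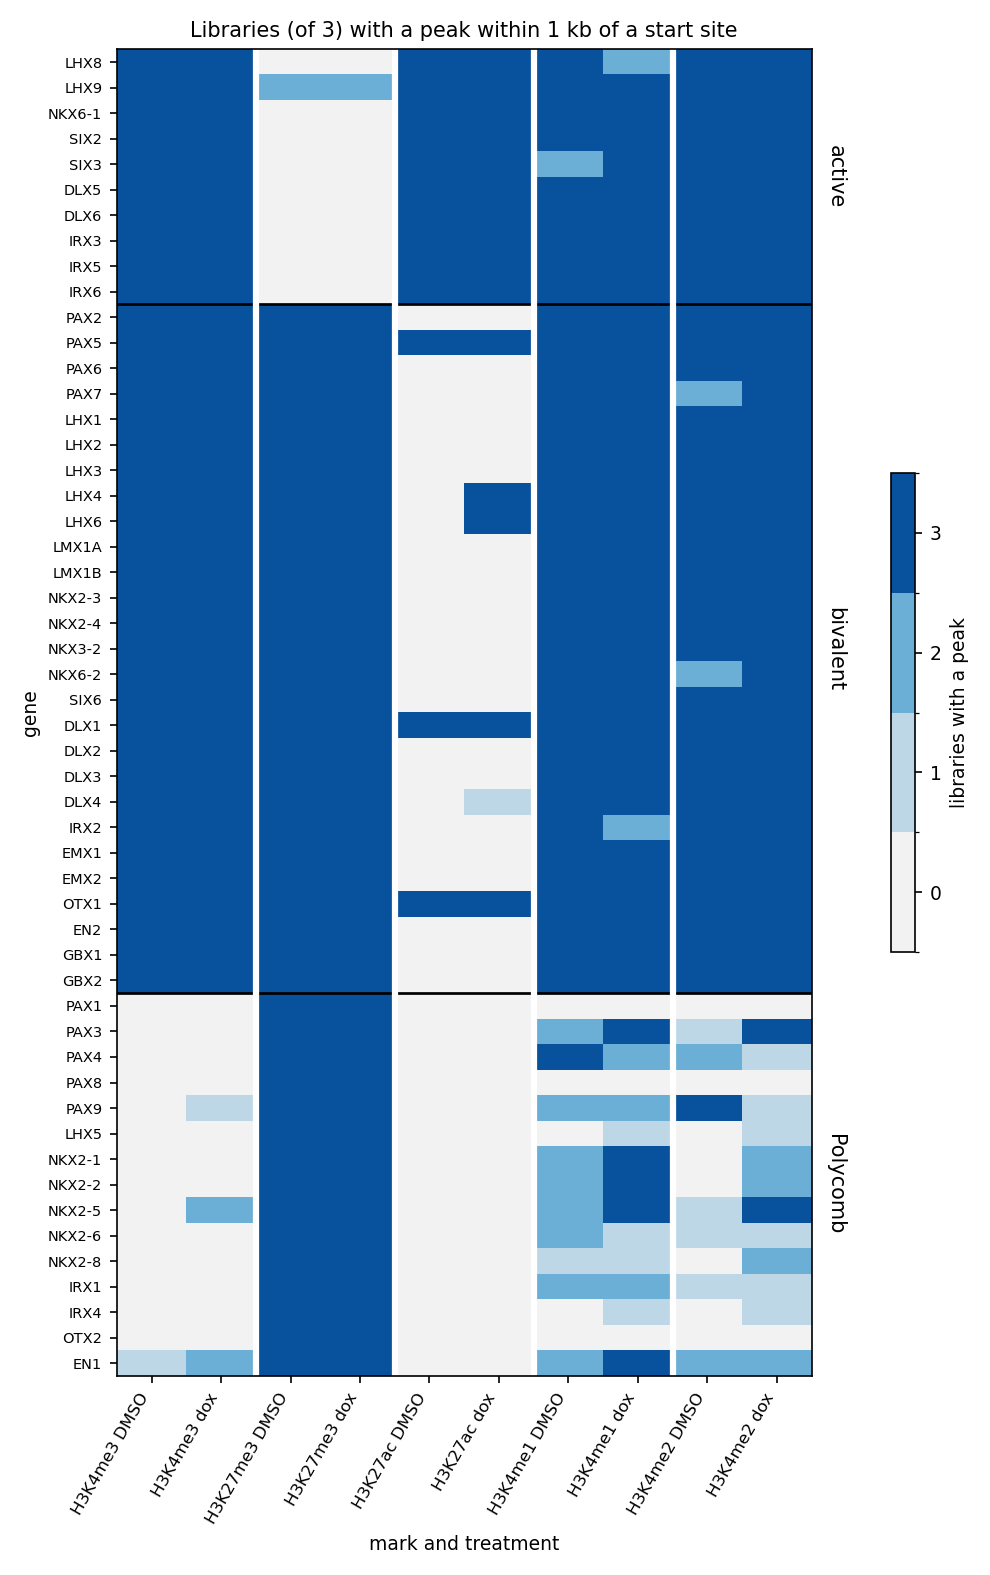
Number of libraries (0 to 3, colour scale) with a peak within 1 kb of a start site, for the 52 genes in rows and each mark and treatment (DMSO or doxycycline, dox) in columns, with lines between the active (10), bivalent (27) and Polycomb (15) genes. H3K27ac is absent from 24 of 27 bivalent genes in DMSO, and LHX4 and LHX6 are the genes that go from 0 to 3 libraries.

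The states did not follow family lines. The active genes were LHX8 and LHX9, NKX6-1, SIX2 and SIX3, DLX5 and DLX6, and IRX3, IRX5 and IRX6. Of the 9 PAX genes 4 were bivalent (PAX2, PAX5, PAX6 and PAX7) and 5 were Polycomb (PAX1, PAX3, PAX4, PAX8 and PAX9). Of the 10 NKX genes, 1 was active, 4 were bivalent (NKX2-3, NKX2-4, NKX3-2 and NKX6-2) and 5 were Polycomb (NKX2-1, NKX2-2, NKX2-5, NKX2-6 and NKX2-8). The LHX family had 2 active, 5 bivalent (LHX1, LHX2, LHX3, LHX4 and LHX6) and 1 Polycomb gene (LHX5). DLX1 to DLX4 were bivalent, as were both LMX, both EMX and both GBX genes, SIX6 and IRX2. The OTX and EN families were split, with OTX1 and EN2 bivalent and OTX2 and EN1 Polycomb. The remaining Polycomb genes were IRX1 and IRX4. With the annotated canonical start as the only start site, 10 genes were active, 26 bivalent and 16 Polycomb in both treatments.

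Most groups of neighbouring members shared a state, and the active IRX genes lay on chromosome 16. There were 9 groups of 2 or 3 members with gaps of at most 1.5 Mb, holding 22 genes, and 7 groups were of 1 state. IRX genes encode Iroquois factors of the early neural tube, heart and limb. On chromosome 16 IRX3, IRX5 and IRX6 were active, and H3K27me3 peaks covered 0.642, 0.0395 and 0.511% of their span from 54283304 to 55330756 in DMSO replicates 1 to 3, and 1.17, 0.405 and 0.177% in doxycycline replicates 1 to 3. On chromosome 5 IRX4 and IRX1 were Polycomb and IRX2 bivalent, and H3K27me3 covered 81.4, 45.1 and 36.6% of the span from 1877413 to 3601403 in DMSO and 86.4, 83.7 and 40.0% in doxycycline. The values of the paralogous clusters did not overlap. The chromosome 5 span carried 0% H3K27ac in each of the 6 libraries.

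The other mixed group lay on chromosome 20, where NKX2-4 was bivalent while NKX2-2, a factor of the ventral neural tube, and PAX1, a factor of the vertebral column, were Polycomb. On chromosome 14, NKX2-1 (thyroid, lung and forebrain), NKX2-8 and PAX9 (skeleton and teeth) were Polycomb, and H3K27me3 covered 27.8 to 74.3% of their 163 kb span in the 6 libraries. The DLX genes, which pattern the forebrain, the face and the limbs, lie in convergent pairs and were divided by pair. The span of DLX1 and DLX2 on chromosome 2 was covered by H3K27me3 to 88.9 to 100% in the 6 libraries and that of DLX3 and DLX4 on chromosome 17 to 58.4 to 70.7%. The span of DLX5 and DLX6 on chromosome 7 was covered to 0% in each library, with 33.9 to 45.8% in H3K27ac peaks. SIX3 and SIX2, factors of the forebrain and of the kidney, shared a span on chromosome 2 with 0% H3K27me3 in each library. Windows of DLX neighbours overlap, so their locus values are not independent.

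No gene of the 52 changed its state with doxycycline, whereas 1428 of 19970 protein-coding genes did (7.15%). By starting state, all genes changed in 3.11% of active, 7.71% of bivalent and 6.92% of Polycomb cases. Several promoters stood near a change. LHX9, which takes part in gonad and brain development, had H3K27me3 in 2 of 3 libraries of either treatment, with peaks 4 to 8 kb before the canonical start and a fold enrichment over input of 1.86 to 2.74. H3K4me3 peaks appeared at the Polycomb genes NKX2-5, the cardiac factor, in doxycycline replicates 1 and 2 with folds of 7.21 and 4.73, and at PAX9 in doxycycline replicate 1 with a fold of 3.03. EN1, a factor of the midbrain and hindbrain, had them in DMSO replicate 1 and doxycycline replicates 1 and 2, with folds of 4.72, 4.31 and 4.12. With a peak in 2 of 3 libraries as the demand, NKX2-5 and EN1 went from Polycomb to bivalent. Without doxycycline replicate 3 these genes and LHX9 changed state, and without DMSO replicate 2 LHX9 did.

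Peak thresholds bore on the Polycomb and bivalent counts. At a q of 1e-05 or less, a threshold chosen after the data were seen, 0 genes were Polycomb in either treatment, 12 were bivalent in DMSO and 3 in doxycycline. At that threshold an H3K27me3 promoter peak was kept at 42, 33 and 12 of the 52 genes in DMSO replicates 1 to 3 and at 41, 37 and 3 in doxycycline replicates 1 to 3. The libraries with 12 and 3 had the shortest fragment length estimates. With H3K27me3 taken from the 3 libraries of long estimate alone, the counts were 9 active, 28 bivalent and 15 Polycomb genes in both treatments, LHX9 being bivalent, and 0 changed state.

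The promoter peaks of the 10 active genes ranged from weak to strong. Among all genes with an H3K27ac promoter peak in the same library, their median stood at percentile 50.2, 37.8 and 31.6 in DMSO and 35.0, 31.3 and 24.6 in doxycycline, below the 53.8 to 55.8 of all active genes. In DMSO, DLX6 stood at percentile 94.0, 97.1 and 82.0 and LHX8 at 10.8, 14.8 and 10.2. Fold enrichment was the caller's value for the strongest peak within 1 kb of a start site, and as it depends on depth and input it is compared within libraries only. For H3K27ac, IRX3 had folds of 10.5, 12.1 and 6.52 in DMSO replicates 1 to 3 and 14.5, 12.4 and 7.21 in doxycycline replicates 1 to 3. DLX6 had 12.3, 12.1 and 6.47 in DMSO and 17.3, 11.7 and 8.10 in doxycycline, and was among the 2 highest of the 10 in each DMSO library. IRX5 had 10.1, 9.75 and 6.03 in DMSO and 14.0, 10.6 and 7.67 in doxycycline. These were the strongest of the group in all 3 DMSO libraries. NKX6-1, a factor of motor neuron progenitors and pancreatic beta cells, had 9.09, 7.23 and 5.06 in DMSO and 10.1, 9.52 and 5.69 in doxycycline. SIX2 had 7.06, 5.09 and 3.88 in DMSO and 7.48, 5.67 and 4.72 in doxycycline. SIX3 had 7.02, 4.73 and 4.21 in DMSO and 7.92, 6.63 and 3.94 in doxycycline. By rank within a library these 3 genes stood between the fourth and the eighth place. LHX9 had 6.35, 5.06 and 3.80 in DMSO and 6.82, 4.36 and 3.50 in doxycycline. IRX6 had 5.65, 5.81 and 3.06 in DMSO and 4.11, 4.44 and 2.69 in doxycycline, the lowest of the 10 in doxycycline replicate 3. DLX5 had 4.38, 3.54 and 2.68 in DMSO and 4.54, 3.63 and 4.17 in doxycycline. LHX8, a factor of forebrain cholinergic neurons and oocytes, had 3.33, 3.55 and 2.77 in DMSO and 4.01, 3.69 and 3.43 in doxycycline, and with DLX5 it was at the low end.

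H3K4me3 peaks were weaker at bivalent than at active genes of the list. The median fold was 26.2, 36.1 and 15.5 over the active and 8.83, 11.9 and 7.10 over the bivalent genes in DMSO replicates 1 to 3. In doxycycline it was 39.2, 33.3 and 22.0 over the active and 15.7, 14.3 and 8.90 over the bivalent genes. The active genes were not at the top of their lists either, since in DMSO their median stood at percentile 27.8, 44.5 and 21.8 of all genes with an H3K4me3 promoter peak. Among all genes with an H3K4me3 promoter peak in the same DMSO library, the median bivalent member stood at percentile 5.96, 8.02 and 5.94, and the median over all bivalent genes at percentile 14.4, 14.7 and 13.6. The widest promoter peak had a median of 3.29 to 3.56 kb over the active and 1.11 to 1.42 kb over the bivalent genes in DMSO. The bivalent genes ranged widely. PAX7, a factor of muscle stem cells, had folds of 3.11, 2.71 and 3.08 in DMSO, while PAX5, the B cell factor, had 21.6, 51.9 and 14.8 and LHX4 28.0, 33.7 and 17.5, values in the range of the active genes.

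**Figure D2:**
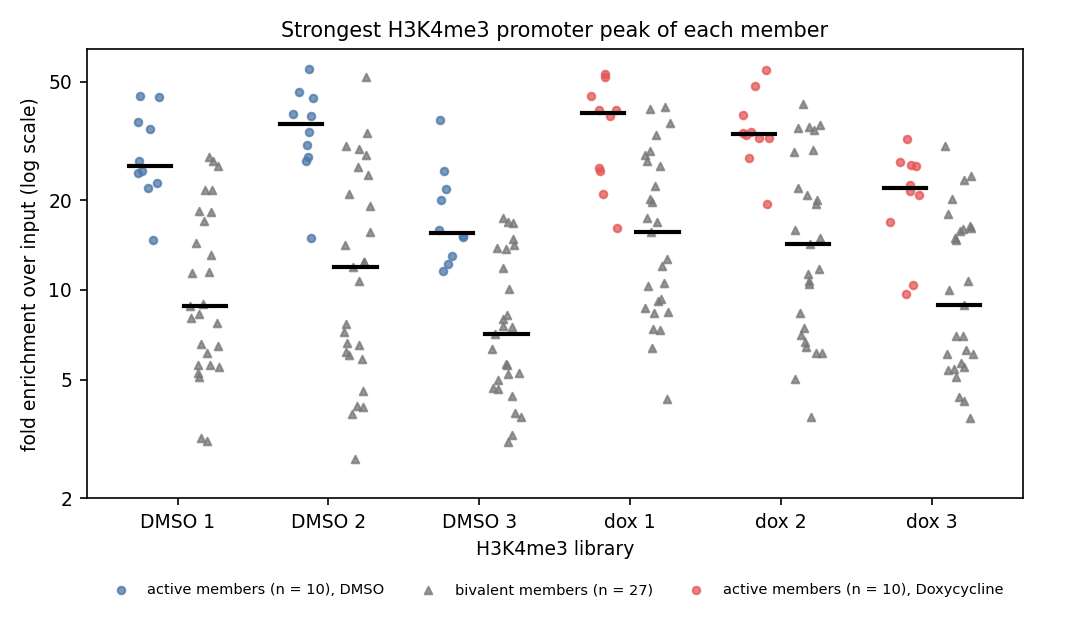
Fold enrichment over input (log axis) of the strongest H3K4me3 promoter peak of each active (circles, n = 10) and bivalent (triangles, n = 27) gene in the 6 libraries, with bars at the medians. In each library the active median lies above the bivalent one, for example 26.2 against 8.83 in DMSO replicate 1, while some bivalent genes reach the active range.

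H3K27me3 peaks, in contrast, were strong at the bivalent genes of the list. Among all genes with an H3K27me3 promoter peak, the median bivalent member stood at percentile 93.5, 92.8 and 89.0 in DMSO and 89.1, 89.7 and 85.7 in doxycycline, against 57.5 to 65.1 for the median of all bivalent genes. The median Polycomb member stood at percentile 85.6, 90.3 and 91.5 in DMSO and 73.4, 75.3 and 80.9 in doxycycline. The marks also shared bases. At 27 of 27 bivalent genes, bases were shared by the H3K4me3 and H3K27me3 peaks of all 3 DMSO libraries of each mark, with a median of 925 bp, from 20 bp in PAX5 to 2741 bp in LHX1. In doxycycline the median was 1190 bp, from 394 to 4378 bp. Cells were pooled, so the marks need not lie on the same molecule.

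Few bivalent genes of the list had H3K27ac at the promoter, at 3 of 27 (11.1%) in DMSO and 5 of 27 (18.5%) in doxycycline, against 37.1% and 41.6% of all bivalent genes. H3K4me1 was at 27 of 27 in DMSO and 26 of 27 in doxycycline, near the 93.2 and 93.9% of all bivalent genes. H3K4me2 was at 25 of 27 in DMSO and 27 of 27 in doxycycline, near the 95.7 and 98.5% of all bivalent genes. The genes with H3K27ac in all 6 libraries were PAX5, DLX1 and OTX1. At OTX1, a factor of the developing forebrain, H3K27ac folds were 4.38, 3.79 and 3.06 in DMSO and 5.37, 4.03 and 3.62 in doxycycline, and H3K27ac and H3K27me3 peaks shared 894 bp in DMSO and 449 bp in doxycycline. At DLX1, a factor of forebrain interneurons, H3K27ac folds were 2.34, 2.23 and 2.24 in DMSO and 3.56, 2.84 and 2.37 in doxycycline, with 0 shared bases. In the 15 Polycomb genes H3K27ac was at 0 promoters in each library. H3K4me1 was found at 9, 7 and 4 of these promoters in DMSO and at 10, 8 and 7 in doxycycline, and H3K4me2 at 7, 2 and 2 and at 12, 2 and 6. These ranges overlapped between treatments. Of the genes that were Polycomb in DMSO among all genes, 32.3, 25.9 and 23.6% had H3K4me1 in DMSO and 34.9, 26.96 and 25.3% in doxycycline, and 23.9, 11.8 and 5.79% and 35.0, 12.6 and 16.9% had H3K4me2.

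Separation of the treatments, a promoter peak in 3 of 3 libraries of either treatment and 0 of 3 of the other, was found for H3K27ac at LHX4 and LHX6. Both genes encode LIM homeodomain factors, LHX4 acting in the pituitary and motor neurons and LHX6 in cortical interneurons, and both gained the peak in doxycycline while staying bivalent. A gain of this kind was seen at 0.11% of all genes and a loss at 0.22%, and 0 members lost H3K27ac. For the other marks 0 members separated the treatments in either direction, where all genes did so at 0.13% for H3K4me3, 0.19% for H3K27me3, 0.315% for H3K4me1 and 0.03% for H3K4me2. With 3 libraries against 3, an exact permutation test cannot give a p under 0.1.

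LHX4 lies on chromosome 1 from 180230264 to 180278984 (hg38, plus strand). Its H3K27ac peaks spanned -0.993 to 0.155 kb from the canonical start in doxycycline replicate 1, -0.867 to -0.023 kb in replicate 2 and -0.764 to -0.052 kb in replicate 3, so that they overlapped the 250 bases printed above. Their folds were 3.82, 2.83 and 2.41, and no peak was called in the 3 DMSO libraries. H3K27ac and H3K27me3 shared 319 bp there in doxycycline. Over the locus, from 20 kb before to 20 kb after the gene, H3K27ac covered 1.77, 0 and 1.61 kb in DMSO and 6.55, 1.89 and 2.97 kb in doxycycline, so that the ranges did not overlap. With flanks of 50 kb, or within 20 kb of the canonical start, the ranges of LHX4 overlapped. The DMSO library with 0 kb was replicate 2.

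LHX6 lies on chromosome 9 from 122202577 to 122229626 (minus strand). Its H3K27ac peaks stood 14.8 to 15.5 kb after the canonical start, inside the gene, at the annotated start site at 122213893, with folds of 2.99, 3.08 and 2.22. Their −log10 q-values were 5.54, 4.53 and 1.77. H3K27ac and H3K27me3 shared 0 bp in the promoter windows of LHX6 in doxycycline. With peaks of q 0.001 or less, or with at least 500 bp of peak in the windows, LHX4 kept the separation and LHX6 lost it, and at q 1e-05 or less neither kept it. With the canonical start alone, PAX5 and LHX4 had the gain. At PAX5 (chromosome 9, 36833269 to 37034268, minus strand) H3K27ac peaks from internal start sites were called in all 6 libraries, while a peak beside the canonical start was called in the 3 doxycycline libraries, with folds of 3.77, 3.01 and 2.80, and in no DMSO library. This PAX5 peak was picked out after its values were seen.

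Beyond promoters, H3K27me3 covered wide parts of the loci. The median share of the locus in H3K27me3 peaks over the 52 genes was 60.4, 36.3 and 34.4% in DMSO replicates 1 to 3 and 63.6, 57.6 and 33.7% in doxycycline replicates 1 to 3, where the median of all genes was 0.0649 to 3.07%. The Polycomb genes had medians of 47.0 to 95.5%, the bivalent genes of 36.5 to 59.6% and the active genes of 0 to 0.364% in the 6 libraries. The 3 libraries of long fragment length estimate gave the highest shares in both treatments. At 42 of 49 genes with any cover (85.7%) each long-estimate library exceeded each short-estimate library, as it did at 63.5% of all genes.

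**Figure D3:**
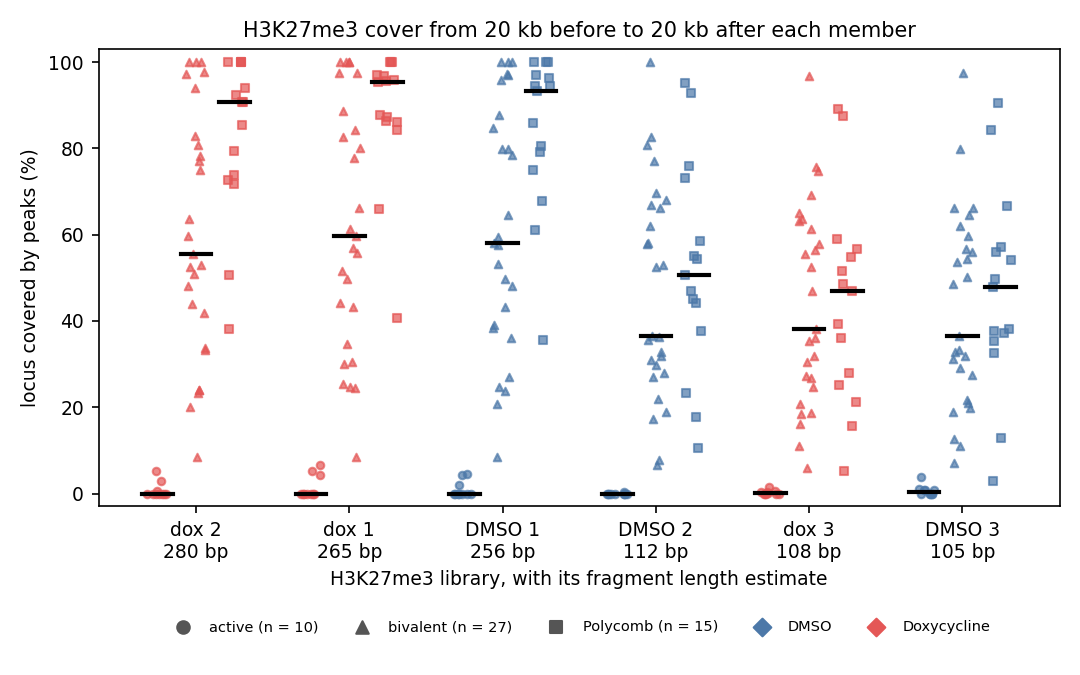
Share of each locus (gene and 20 kb either side, %) in H3K27me3 peaks for active (circles), bivalent (triangles) and Polycomb (squares) genes, with bars at medians. Libraries are ordered by fragment length estimate and coloured by treatment, and the 3 long-estimate libraries have Polycomb medians of 90.7 to 95.5% against 47.0 to 50.6% in the 3 short-estimate ones.

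PAX3, a neural crest and muscle factor, had the widest H3K27me3, at 135, 65.4 and 66.5 kb of a 139 kb locus in DMSO and 133, 131 and 67.6 kb in doxycycline. LHX2, a forebrain and eye factor, had 69.7, 57.8 and 47.4 kb of 71.6 kb in DMSO and 71.6, 70.1 and 53.5 kb in doxycycline. PAX2, a kidney and eye factor, had 71.5, 48.7 and 44.2 kb of 135 kb in DMSO and 69.4, 70.7 and 47.7 kb in doxycycline. In each of these genes the treatments overlapped and the long-estimate libraries were higher. At the other end, NKX6-1, SIX2 and DLX6 had 0 kb in each of the 6 libraries.

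No member had H3K27me3 cover that was higher or lower in all doxycycline than in all DMSO libraries, among 49 tested. Over all genes 1.22% were higher and 0.101% lower. At the 42 of 49 members where each long-estimate library exceeded each short-estimate one, neither call was possible, because both treatments held both kinds. The same holds for the 63.5% of all genes with that order. Within the long-estimate libraries (1 DMSO and 2 doxycycline) 14 of 46 genes were higher in doxycycline and 9 lower, against 29.4 and 21.1% of all genes. Within the short-estimate libraries (2 DMSO and 1 doxycycline) 7 of 49 were higher and 19 lower, against 32.2 and 16.0% of all genes. In the long kind the members' counts were thus near the background. In the short kind a smaller share of members than of all genes was higher, and a larger share was lower. No test was made on 3 libraries a kind. PAX8 showed how far the kinds stood apart, at 63.0, 10.9 and 3.10 kb in DMSO and 67.8, 52.1 and 5.44 kb in doxycycline.

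H3K4me3 cover was higher in all doxycycline than in all DMSO libraries at 7 of 46 genes tested (15.2%), where 2.09% of all genes were higher, and lower at 1 (2.17%), where 6.33% of all genes were lower. A range that does not overlap corresponds to an exact two-sided permutation p of 0.1, the smallest possible. The genes with more cover were the bivalent PAX6, LHX1, LHX2 and EN2, the Polycomb PAX3 and the active NKX6-1 and SIX2. LHX1, a kidney and head organizer factor, had 6.84, 7.06 and 6.39 kb in DMSO and 10.5, 9.87 and 8.99 kb in doxycycline, or 6.76 ± 0.342 and 9.79 ± 0.766 kb (SD, n = 3). PAX6, the eye factor, had 1.77, 2.91 and 1.63 kb in DMSO and 5.15, 3.82 and 3.21 kb in doxycycline. EN2 had 1.42, 1.67 and 1.39 kb in DMSO and 3.01, 2.99 and 1.98 kb in doxycycline. The active genes moved less, as SIX2 with 2.98, 2.90 and 2.67 kb in DMSO and 3.27, 3.09 and 3.01 kb in doxycycline. PAX8, a thyroid and kidney factor, was lower, with 0.904, 0.924 and 0.960 kb in DMSO and 0.902, 0.895 and 0.525 kb in doxycycline, a gap of 2 bases between the nearest libraries.

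Same-numbered libraries deviated together from their group means in H3K4me3, H3K27ac and H3K4me1, and calls by pairs were therefore also made. A gene was called there where all 3 same-numbered pairs moved in the same direction (exact sign-flip test, p = 0.25, the smallest of 8 flips). By pairs 24 of the genes were higher and 5 lower for H3K4me3, where 12.3% of all genes were higher and 31.4% lower. Without doxycycline replicate 3 the count of genes higher in all libraries rose from 7 to 26, and without DMSO replicate 2 to 12. Among bivalent genes alone, 4 of 27 members and 4.28% of all bivalent genes had more H3K4me3 cover in all doxycycline libraries.

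H3K4me1 showed the same tendency. Cover was higher in all doxycycline than in all DMSO libraries at 10 of 51 genes (19.6%) and lower at 1 (1.96%), where 2.07% of all genes were higher and 6.86% lower. By pairs 18 were higher and 7 lower, where 11.2% of all genes were higher and 32.9% lower. Of the 10 genes 8 were bivalent (PAX2, PAX6, LHX2, LHX3, NKX2-3, NKX3-2, NKX6-2 and GBX2), out of 27 bivalent genes tested, where 4.74% of all bivalent genes were higher. The others were PAX3 and OTX2, which are Polycomb genes. LHX2 had 11.4, 9.27 and 8.13 kb in DMSO and 16.7, 13.8 and 13.4 kb in doxycycline. LHX3, a pituitary and motor neuron factor, had 15.1, 16.1 and 9.12 kb in DMSO and 26.6, 22.4 and 17.5 kb in doxycycline. GBX2, a hindbrain factor, had 12.0, 12.3 and 10.7 kb in DMSO and 16.2, 15.2 and 15.3 kb in doxycycline. The ranges did not overlap, and among LHX2, LHX3 and GBX2 the DMSO libraries of LHX3 spread the most. With peaks of q 0.001 or less 3 genes were still higher (PAX2, OTX2 and GBX2), and without DMSO replicate 1 the count was 18 and without doxycycline replicate 3 it was 17.

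For H3K4me2, 3 of 52 genes (PAX3, LHX2 and NKX2-5) were higher in all doxycycline libraries and 0 lower, where 0.806% of all genes were higher and 0.614% lower. By state these were 1 of 27 bivalent members, against 2.39% of all bivalent genes, and 2 of 15 Polycomb members, against 4.02% of all Polycomb genes. LHX2 had 8.09, 6.90 and 4.19 kb in DMSO and 14.2, 9.15 and 9.09 kb in doxycycline. Without DMSO replicate 1, 29 genes were higher, without doxycycline replicate 2 there were 11 and without doxycycline replicate 3 there were 5. With lists cut to equal length there were 11. PAX3, LHX2 and NKX2-5 were called in each of these settings. Leaving out a library could only add genes by construction, so only the lists of equal length could have removed any of the 3. PAX3 and LHX2 are the genes that were higher in H3K4me3, H3K4me1 and H3K4me2, which were profiled in separate libraries of the same cells and share the input. With peaks of q 0.001 or less neither gene kept its H3K4me1 call.

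H3K27ac cover was higher in all doxycycline libraries at 3 of 28 genes (PAX2, LHX4 and NKX6-1) and lower at 2 (LHX9 and IRX6), where 4.21% of all genes were higher and 11.7% lower. By pairs 7 were higher and 8 lower, where 17.4% of all genes were higher and 25.4% lower. LHX9 had 10.5, 10.4 and 10.7 kb in DMSO and 8.42, 6.12 and 6.67 kb in doxycycline, or 10.5 ± 0.178 and 7.07 ± 1.203 kb (SD, n = 3). It was also the gene with less H3K4me1, at 15.3, 16.1 and 16.9 kb in DMSO and 12.7, 7.74 and 7.33 kb in doxycycline. IRX6 had 4.84, 4.40 and 4.12 kb of H3K27ac in DMSO and 3.15, 1.80 and 2.29 kb in doxycycline. The decreases at LHX9 and IRX6 left the promoters active. Without DMSO replicate 3 there were 5 genes lower and without doxycycline replicate 1 there were 7, IRX3 among them in both. Without DMSO replicate 1 there were 7 genes higher and without doxycycline replicate 3 there were 5. The call for PAX2 was lost within 20 kb of the canonical start, a window that ends before most of its H3K27ac, and that for LHX9 with peaks of q 1e-05 or less. Across the whole IRX3 to IRX6 span H3K27ac covered 5.58, 4.49 and 4.34% in DMSO and 3.05, 2.38 and 2.17% in doxycycline, a span chosen after values were seen. NKX6-1 gained slightly, at 4.99, 4.37 and 4.38 kb in DMSO and 6.68, 5.18 and 5.06 kb in doxycycline. Its call was lost with peaks of q 0.001 or less.

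**Figure D4:**
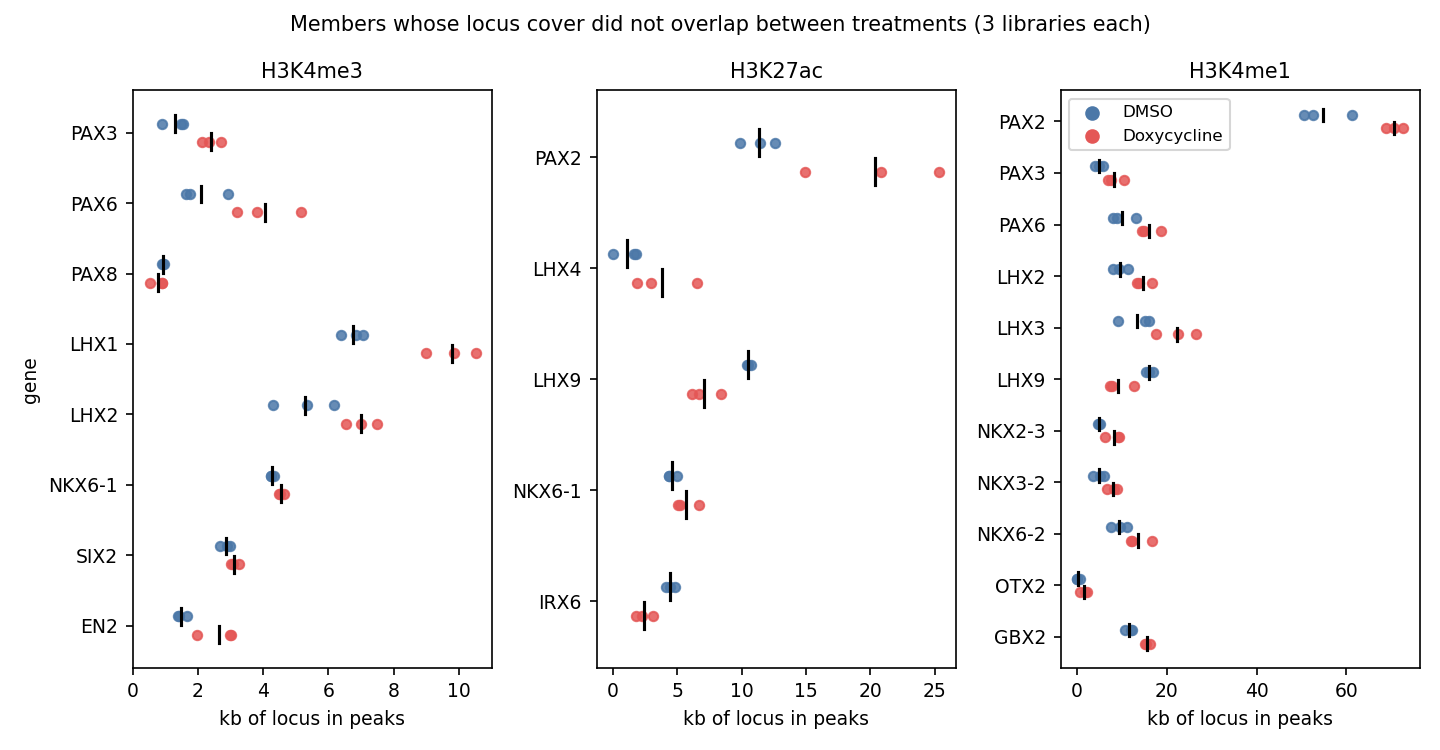
Bases of the locus in peaks (kb, gene and 20 kb either side) for the members whose ranges did not overlap between treatments, by mark, with 3 points per treatment and vertical ticks at the means. PAX2 has the largest values, with 9.90 to 12.6 kb of H3K27ac in DMSO against 14.9 to 25.4 kb in doxycycline, and LHX9 and IRX6 are lower in doxycycline.

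Distal H3K27ac, in peaks that touched no promoter window of a protein-coding gene, was called in all 3 libraries at 14 of the 52 loci in DMSO (26.9%) and 15 in doxycycline (28.8%), against 44.4 and 39.0% of all genes. None of these was a Polycomb gene. In DMSO 6 were active and 8 bivalent, and in doxycycline 5 and 10. There were 123 merged elements in 22 loci, with those between DLX5 and DLX6 counted for each gene, of which 26 had a peak in all 6 libraries. H3K27me3 peaks overlapped 0 of these 26, and H3K4me1 was present in all 6 libraries at 25 of them. By locus 7 were at PAX5, 5 at PAX7 and 5 at PAX2, all bivalent genes under the main rule. PAX5 went from bivalent to active with peaks of q 0.001 or less and with lists of equal length. With at least 500 bp of peak it went from active to bivalent. With lists of equal length PAX7 went from Polycomb to bivalent. The element between DLX5 and DLX6 (chr7:97015484-97018824) had folds of 7.15, 6.96 and 4.72 in DMSO and 8.46, 6.23 and 5.42 in doxycycline. A PAX5 element 215 kb from the canonical start, beyond the end of the gene, had folds of 7.34, 4.74 and 5.65 in DMSO and 8.10, 8.74 and 4.81 in doxycycline.

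PAX2, PAX5 and PAX7, picked after their values were seen, thus had a repressive and an active part within a locus, and stretches free of H3K27me3 that held H3K27ac were also found at LMX1A (38.6 kb), LMX1B (23.8 kb) and EMX1 (24.8 kb). At PAX2 (chromosome 10, 100735396 to 100829944, plus strand) a stretch from 12.9 to 73.6 kb after the canonical start was free of H3K27me3 in each of the 6 libraries. It held the H3K27ac of the locus, 11.4, 12.6 and 9.90 of 11.4, 12.6 and 9.90 kb in DMSO and 23.9, 20.9 and 14.9 of 25.4, 20.9 and 14.9 kb in doxycycline. At PAX5 the free stretch ran from 0.519 to 221 kb and held 42.9, 33.1 and 24.7 of 43.8, 33.1 and 24.7 kb of H3K27ac in DMSO and 43.5, 31.9 and 19.5 of 47.3, 35.2 and 21.2 kb in doxycycline. H3K27me3 peaks overlapped 2.15, 0 and 0% of the PAX5 H3K27ac in DMSO and 8.06, 9.41 and 4.63% in doxycycline. At PAX7 it ran from 21.9 to 127 kb, with 37.3, 33.9 and 23.6 of 43.98, 40.6 and 30.7 kb in DMSO and 32.1, 28.6 and 20.1 of 38.1, 35.2 and 26.3 kb in doxycycline. The treatments overlapped at PAX5 and PAX7 but not at PAX2, while by same-numbered pairs the H3K27ac cover of the PAX7 locus was lower in doxycycline in 3 of 3 (exact sign-flip test, p = 0.25, the smallest possible).

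**Figure D5:**
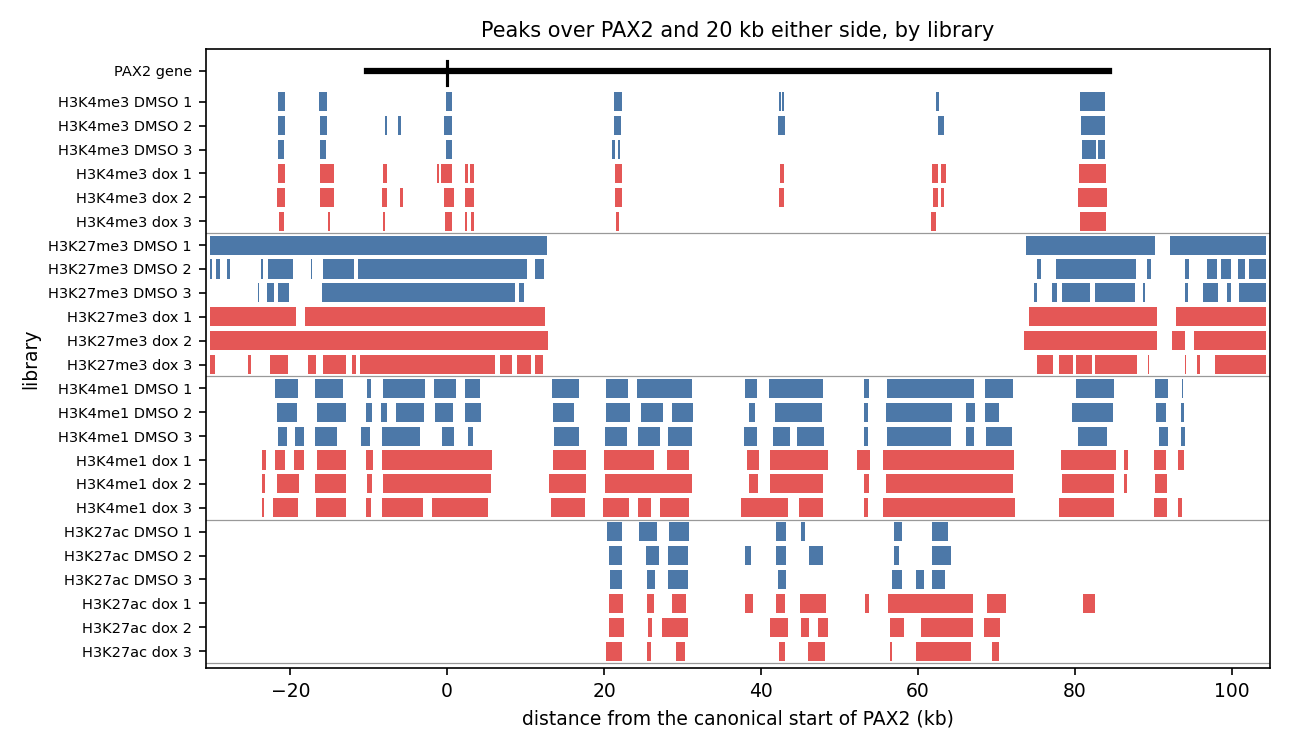
Peaks of H3K4me3, H3K27me3, H3K4me1 and H3K27ac over PAX2 and 20 kb either side in each library, by distance from the canonical start (kb), DMSO in blue and doxycycline (dox) in red. H3K27me3 leaves out the stretch from 12.9 to 73.6 kb in all 6 libraries, where the H3K27ac block around 61.6 kb is wider in doxycycline.

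H3K27ac cover at PAX2 was 11.3 ± 1.37 kb in DMSO against 20.4 ± 5.24 kb in doxycycline (SD, n = 3). An element from 100801764 to 100812637, 61.6 kb after the canonical start and inside the gene, was covered over 3087, 3043 and 3817 bp in DMSO and 10874, 8367 and 7287 bp in doxycycline. The neighbouring element from 100813964 to 100816780 had no peak in DMSO and folds of 2.76, 2.67 and 2.23 in doxycycline, and was the only element of the 123 to appear in all doxycycline and no DMSO library. H3K4me1 over the locus was 61.2, 52.5 and 50.6 kb in DMSO and 72.7, 70.5 and 68.7 kb in doxycycline. The PAX2 promoter had no H3K27ac peak in any of the 6 libraries. In the other direction 3 elements had a peak in all DMSO and no doxycycline library, in PAX5, PAX7 and LMX1A, with folds of 1.88 to 2.41. The share of such elements over all genes was not computed, so the counts in both directions stand without a background.

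Related genes were counted in the same way. Of 7 genes of these families that were not members, 1 was active, 1 had H3K4me3 alone, 4 were bivalent and 1 was Polycomb, and 0 changed state. Of 22 other homeobox genes, 18 were active, 4 were bivalent and 0 changed. The bivalent MSX1, named after its values were seen, went from 0 of 3 to 3 of 3 libraries with promoter H3K27ac, as LHX4 and LHX6 did. Of 14 genes of Polycomb repressive complex 2, its cofactors and the H3K27 demethylases, 13 were active in DMSO and 12 in doxycycline. The gene that changed was KDM6B, an H3K27 demethylase gene, from active to bivalent. It stood near the rule, with H3K27me3 in 2 of 3 DMSO and 3 of 3 doxycycline libraries. H3K4me3 and H3K27ac were in 3 of 3 libraries of both treatments.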

How the data were processed

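KELLY cells with the RUNX1T1 hairpin were profiled for H3K4me1, H3K4me2, H3K4me3, H3K27ac and H3K27me3 after 72 h of DMSO or doxycycline, with 3 libraries per mark and treatment. The 4 input libraries had no peak lists. Reads had been aligned to hg38 with Bowtie2 and kept at a mapping quality of at least 30, and peaks had been called in each library against input. Per the file headers the caller was MACS2 2.1.1.20160309, in broad mode at q 0.05 (weak regions at 0.1) for H3K4me1, H3K27ac and H3K27me3 and in narrow mode at p 1e-05 for H3K4me2 and H3K4me3. The deposited lists give, as written by the authors' caller, the pileup signal, the fold enrichment over input, and −log10 p-values and −log10 q-values of each peak. Per the file headers the input of replicate 3 had the read totals of that of replicate 1. Labels and methods differ on whether reads were single-end or paired-end.

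Peaks were placed on GENCODE release 44 protein-coding genes with Python 3.11.15, numpy 2.4.6 and pandas 2.3.3. Promoters were 1 kb either side of any annotated start site with 1 bp or more of peak, and loci the gene with 20 kb either side. Locus cover was the number of bases in peaks, called where the 3 doxycycline values were all above or all below the 3 DMSO values (exact two-sided permutation p = 0.1, the smallest over 20 assignments). Genes without any cover of a mark were not tested. Deviations from the group means correlated between same-numbered libraries over all genes at 0.462 to 0.825 for H3K4me3, 0.162 to 0.814 for H3K27ac and 0.397 to 0.600 for H3K4me1, so those numbers were taken to pair the libraries. The scripts were tested on simulated data.

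The members and lists were chosen with earlier results of these data known. Genes given by library were the active ones, those with a changed state or a separating promoter mark, bare ones, and the 3 highest and 3 lowest in H3K27me3 locus cover; others named with values were chosen after these were seen. Alternatives were peak thresholds, lists of equal length, the number of libraries needed, start sites, widths, overlap, fragment length, pairing and leaving out each library.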

Additional observations from a re-analysis of the deposited data

How the results depend on the processing

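Of 296 counts recomputed under the alternatives, 224 stayed within 1.5 times the reported value and 72 did not. Of 324 recomputed differences of single loci, 295 stayed past the threshold, 29 did not and 0 reversed. Leaving out a library, or calling by the replicate block, kept 27 of 27 by construction. All 29 thus fell under the other alternatives. The cause of these moves was not tested, except that fewer libraries and stricter thresholds leave fewer peaks to compare by construction.

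With peaks of q 0.001 or less, 6 members in DMSO and 4 in doxycycline fell outside the 3 states, 3 changed state, 1 gained H3K27ac at the promoter, and for H3K4me1 3 loci were higher and 0 lower. With peaks of q 1e-05 or less, chosen after seeing the data, 12 members were bivalent, 0 Polycomb and 28 outside the 3 states in DMSO, and 3, 0 and 38 in doxycycline. At that threshold 13 changed state, 0 gained H3K27ac, 2 loci were higher and 0 lower in H3K4me1, and distal H3K27ac was at 7 loci in DMSO and 6 in doxycycline. With lists of equal length 1 member in doxycycline was outside the 3 states, 3 changed state, 2 separated the treatments in a mark other than H3K27ac, and 5 loci were higher in H3K27ac and 11 in H3K4me2.

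A peak in 2 of 3 libraries gave 2 changes of state. Windows of 2.5 kb gave 1 change of state and 1 separating promoter other than for H3K27ac. At least 500 bp of peak put 2 members in DMSO and 1 in doxycycline outside the 3 states, with 5 changes of state and 1 gain of H3K27ac. Flanks of 50 kb gave 4 loci lower in H3K27ac and 23 with distal H3K27ac in DMSO. Within 20 kb of the canonical start 0 loci were lower in H3K4me3. Taking H3K27me3 from the long-estimate libraries alone, also chosen after seeing the data, left 0 changes of state.

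With the replicate block, 24 loci were higher and 5 lower for H3K4me3, 7 and 8 for H3K27ac and 18 and 7 for H3K4me1. For H3K27me3 the block gave 18 higher and 0 lower and for H3K4me2 30 higher and 0 lower, but same-numbered libraries correlated at -0.703 to 0.935 and 0.0792 to 0.736, so not every pair passed 0.1 and the numbers were not taken to pair these libraries. The lowest was pair 2 in both marks, which in H3K27me3 joins a short-estimate and a long-estimate library, and 4 of 6 libraries of either mark correlated best with their own number. Within long-estimate H3K27me3 libraries 14 loci were higher and 9 lower, and within short-estimate ones 7 and 19.

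Leaving out each library number of a treatment in turn gave 0 to 3 changes of state. The 2 gains of promoter H3K27ac remained throughout, as by construction a gain cannot be lost when a library is left out. Other separating promoters numbered 0 to 3. There were 2 without DMSO replicate 1, 1 without doxycycline replicate 1, 3 without doxycycline replicate 2 and 1 without doxycycline replicate 3. Loci higher in H3K4me3 ranged from 7 to 26 and lower from 1 to 4, the latter at 4 without DMSO replicate 3 and 2 without doxycycline replicate 3. For H3K27me3 they ranged from 0 to 14 higher, at 5 without DMSO replicate 1 and 14 without doxycycline replicate 3, and 0 lower. Those libraries were the only long-estimate one in DMSO and the only short-estimate one in doxycycline. Where each long-estimate library exceeded each short-estimate one, they had blocked a higher call. For H3K27ac 3 to 7 were higher, at 7 without DMSO replicate 1 and 5 without doxycycline replicate 3, and 2 to 7 lower. For H3K4me1 10 to 18 were higher and 1 to 3 lower, at 2 without DMSO replicate 2, 3 without DMSO replicate 3, 3 without doxycycline replicate 1 and 2 without doxycycline replicate 2. For H3K4me2 3 to 29 were higher and 0 to 1 lower, at 1 without DMSO replicate 3 and 1 without doxycycline replicate 1. The lower calling depth in doxycycline, the smaller of ChIP and input reads, limits what a missing peak there shows. A peak list holds no value below its threshold.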
